A study of Homo sapiens with 6 samples.

Results

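Elongation and initiation factors run the cycle by which ribosomes make protein. eEF1A carries aminoacyl-tRNA to the ribosome, its exchange factors recharge it with GTP, and eEF2 moves the ribosome along the messenger RNA, whereas eIF4A and eIF4G open the messenger RNA and bring the small ribosomal subunit to it. Their genes are transcribed heavily in growing cells. An R-loop is an RNA-DNA hybrid with a displaced single strand of DNA, and R-loops are known to form behind RNA polymerase near the starts of transcribed genes and around their polyadenylation sites.

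R-loop peaks at 10 translation factor genes were compared between untreated HEK293T cells and cells exposed to 10 μM N2-heptynyl-dG for 3 h. HEK293T is a human embryonic kidney cell line, and N2-heptynyl-dG is a modified deoxyguanosine that the cells build into their DNA as an N2-alkyl lesion of guanine. The genes are EEF1A1, EEF1B2, EEF1D, EEF1G, EEF2 and EIF5A, which act in elongation, and EIF4A1, EIF4A2, EIF4G1 and EIF4G2, which act in initiation. They were taken by symbol, 10 of 20098 coding genes on chromosomes 1 to 22 and X of GENCODE release 44 mapped to GRCh37, the build called hg19 in the peak lists. A peak was assigned to a gene when it overlapped the gene record or the 2000 bp on either side.

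The labels give 2 spKAS-seq samples of untreated cells, 2 of treated cells and 2 inputs of untreated cells, and all groups are the same parental line. In spKAS-seq, cells are exposed to N3-kethoxal, here at 5 mM for 10 min, which labels guanine where DNA is single-stranded, and the labeled strand is enriched and sequenced. Each condition had 1 list of R-loop peaks, with 10231 peaks in untreated and 11085 in treated cells. A peak in these lists is a stretch with a strand, without a height or a p-value. Widths were multiples of 250 bp for 99.9% of untreated peaks and for every peak at the 10 genes, whose borders are read here as steps of a 250 bp grid. No spread between replicates and no depth could therefore be given for any value, no difference between the conditions was tested, and a shift of 250 bp is 1 step of the grid.

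All 10 genes carried a peak in untreated cells and all 10 in treated cells. Over all coding genes, 41.8% had a peak in untreated cells, 43.9% in treated cells and 36.4% in both. The 10 genes held 19 peaks in each list. The summed width was 23250 bp in untreated cells and 21750 bp in treated cells. Of these peaks, 19 of 19 in untreated and 18 of 19 in treated cells were on the strand of their gene, called sense here. Counted by gene, 10 of 10 members had a sense peak in untreated and 9 of 10 in treated cells, beside 31.7% and 33.3% of all coding genes. The share of sense peaks among all peaks at coding genes was not computed. Most peaks lay at the ends of the genes. In untreated cells 8 sense peaks were at the start, 10 at the end and 1 inside, and in treated cells 7 were at the start, 9 at the end and 2 inside. A sense peak inside the gene was thus found at 1 of 10 genes in untreated and 2 of 10 in treated cells, beside 5.32% and 5.49% of coding genes, so a bare interior is no trait of these genes alone. A start peak here overlaps the 1000 bp on either side of the start of the canonical transcript, and an end peak overlaps the canonical end or the 2000 bp after it. These windows were chosen after the positions of the peaks had been seen.

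**Figure D1:**
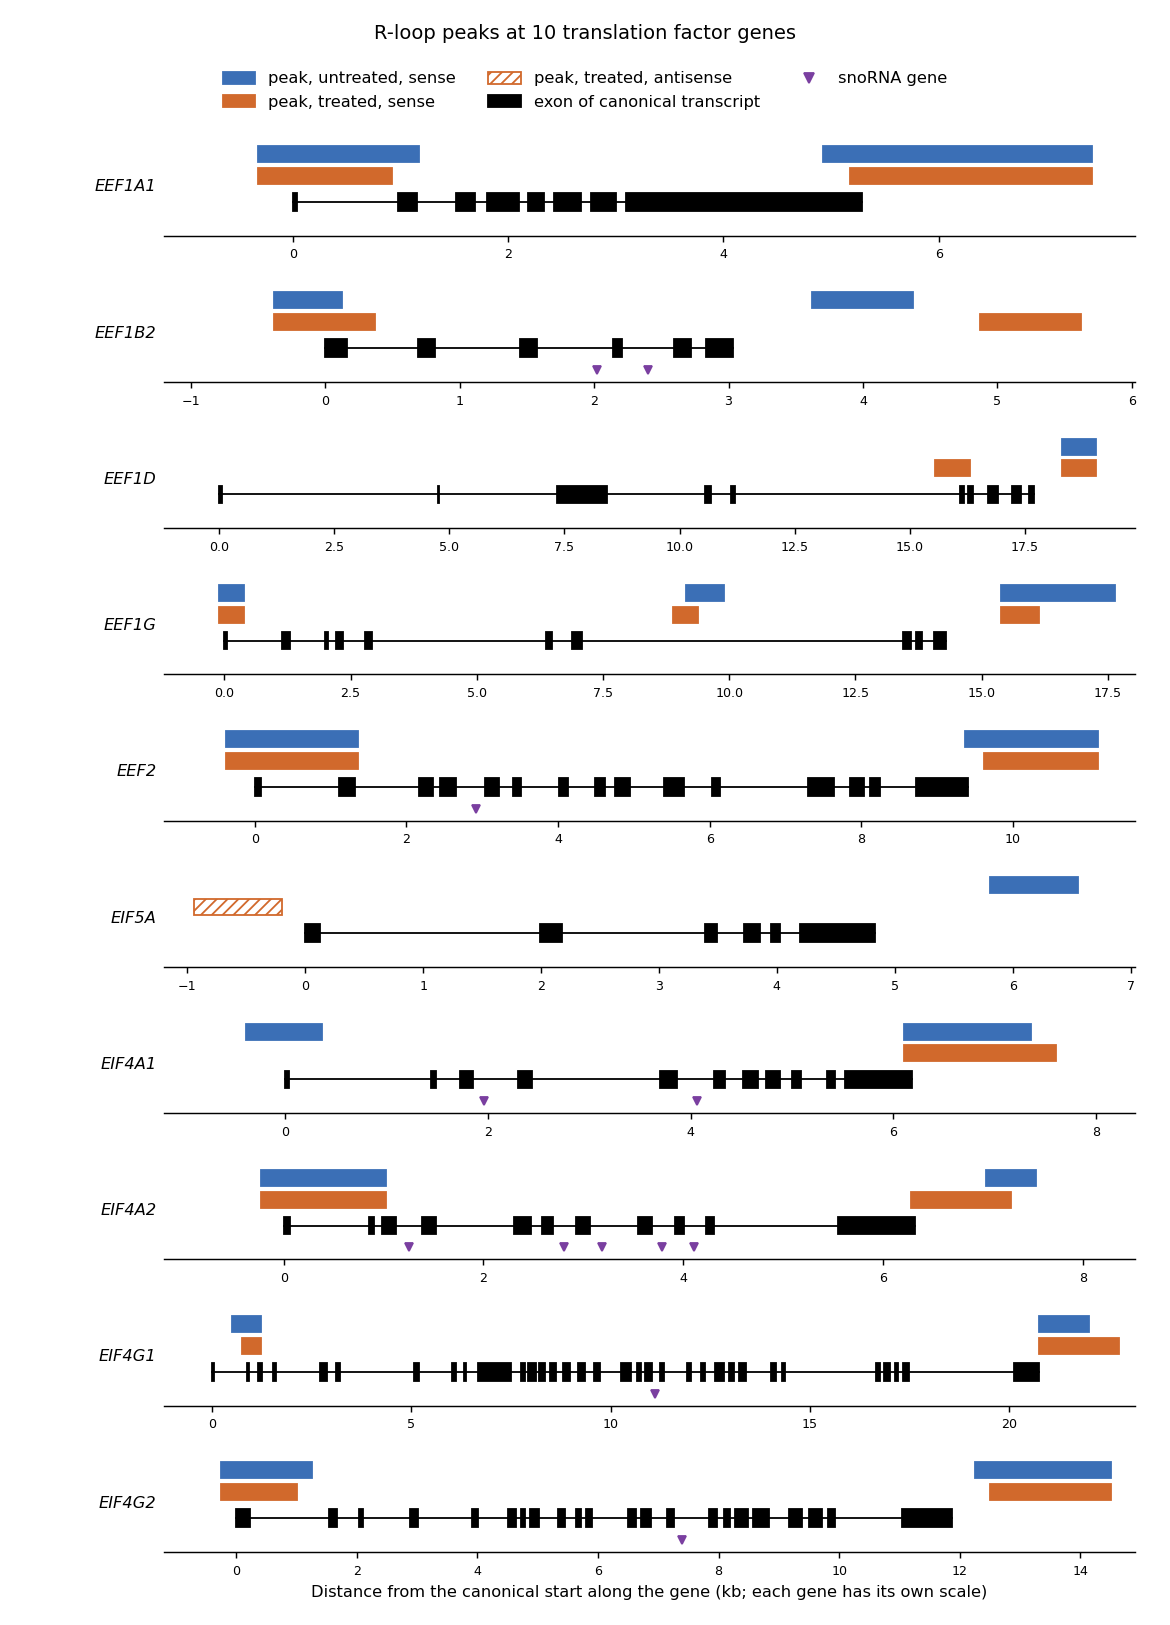
Peaks at each of the 10 genes, drawn along the canonical transcript from its start (horizontal axis, distance in kb, with a separate scale per gene). Bars are untreated (blue) and treated (orange) peaks, filled when sense and hatched when antisense, black boxes are exons and triangles are snoRNA genes; the bars cluster at the start and past the end, and the interior is free of peaks except in EEF1G and, in treated cells, EEF1D.

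A sense peak at the start was found at 8 of 10 genes in untreated and 7 of 10 in treated cells, where the share over 19819 coding genes with a canonical transcript was 18.6% and 20.6%. A sense peak at the end was found at 10 of 10 genes in untreated and 9 of 10 in treated cells, against 13.0% and 13.0% of all coding genes. Different sense peaks at start and end of the same gene were present at 8 genes in untreated cells, 7 in treated cells and 7 in both lists. Across coding genes these shares were 4.43% in untreated cells, 4.73% in treated cells and 3.14% in both. The members were named because of earlier results from these lists, so their shares describe them and test nothing.

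The starts are shown first, since most of the start peaks cover them. Below are 40 bases before and 20 bases from the canonical start of GRCh37, in the direction of transcription, for the 9 genes whose sequence is given. Capitals mark a run of pyrimidines that begins with C at the first transcribed base, the feature known in messenger RNAs of the translation apparatus as a 5′ terminal oligopyrimidine tract.
EEF1A1: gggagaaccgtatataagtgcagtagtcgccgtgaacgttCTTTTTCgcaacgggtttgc
EEF1B2: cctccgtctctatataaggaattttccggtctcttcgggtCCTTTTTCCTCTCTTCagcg
EEF1G: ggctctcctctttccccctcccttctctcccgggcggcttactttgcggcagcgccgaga
EEF2: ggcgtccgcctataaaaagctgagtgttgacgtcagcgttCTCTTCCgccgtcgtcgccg
EIF5A: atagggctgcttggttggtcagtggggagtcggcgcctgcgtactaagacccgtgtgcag
EIF4A1: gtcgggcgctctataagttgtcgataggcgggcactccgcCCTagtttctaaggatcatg
EIF4A2: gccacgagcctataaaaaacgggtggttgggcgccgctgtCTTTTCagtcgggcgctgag
EIF4G1: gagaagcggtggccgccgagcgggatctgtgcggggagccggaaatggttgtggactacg
EIF4G2: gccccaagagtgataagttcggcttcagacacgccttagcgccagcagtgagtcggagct

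The run was 7 bases in EEF1A1, 16 in EEF1B2, 7 in EEF2 and 6 in EIF4A2, and EEF1D had 9. With a minimum of 5 bases, 5 of the 10 genes had such a start, compared with 4.6% of 19819 coding genes and 75.3% of 77 cytosolic ribosomal protein genes. EIF4A1 had 3 pyrimidines from its annotated start, and in EEF1G, EIF5A, EIF4G1 and EIF4G2 the first transcribed base of the canonical transcript is not C. Each call rests on that annotated base alone, so it does not show that a messenger RNA lacks the tract. The letters TATA, which read the same on either strand, occurred in the 40 bases before the start of EEF1A1, EEF1B2, EEF2, EIF4A1 and EIF4A2. That is 5 of 10 genes, against 8.59% of coding genes and 23.4% of ribosomal protein genes. TATA was searched after the sequences had been seen. All 5 genes with TATA had sense peaks at start and end in untreated cells, and EEF1A1, EEF1B2, EEF2 and EIF4A2, which have TATA and the run, had them in both lists. Of the genes with neither, EEF1G, EIF4G1 and EIF4G2 also carried start and end peaks in both lists and EIF5A had no sense start peak, and EEF1D has the run and had no start peak. Outside the 10 genes and the ribosomal protein genes, 849 coding genes start with such a run, and 6.83% of these had sense peaks at start and end in untreated cells and 7.42% in treated cells. Among 18902 coding genes without the run, a group from which ribosomal protein genes were not taken out, the shares were 4.08% and 4.38%. For 1698 coding genes with TATA other than the members, the shares were 6.24% and 7.07%. Ribosomal protein genes were not taken out of this group either.

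EEF1A1 on the minus strand of chromosome 6 encodes the main form of eEF1A. Its start peak in untreated cells was 1500 bp wide (chr6:74229582-74231081) and reached from 326 bp before the canonical start to 1173 bp after it. In treated cells the start peak was 1250 bp wide, with the same upstream border and its downstream border at 923 bp. The end peak was the widest of all member peaks, 2500 bp in untreated cells (chr6:74223332-74225831), running from -358 bp to 2141 bp relative to the canonical end. Only 2.24% of all untreated peaks were at least as wide. The treated end peak was 2250 bp wide, began at -108 bp and stopped at the same 2141 bp. Both EEF1A1 peaks were thus 1 grid step narrower in treated cells, each on the side facing the gene, and the stretch without a peak between them was 3750 bp long in untreated cells and 4250 bp with treatment.

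EEF2 on the minus strand of chromosome 19 encodes the translocase. Its start peak had identical borders in the lists, 1750 bp from 383 bp before the canonical start to 1366 bp after it (chr19:3984095-3985844). This peak covers 218 coding bases, 83 bases of untranslated exon and 1066 bases of intron. The end peak was 1750 bp wide in untreated cells (chr19:3974345-3976094), from 40 bp before to 1709 bp past the canonical end, and 1500 bp wide in treated cells, where it began 210 bp past the end. The far border was the same. As in EEF1A1, the end peak differed only by 1 grid step on the side of the gene.

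EEF1B2, EEF1D and EEF1G encode subunits of the eEF1B complex, which exchanges GDP for GTP on eEF1A. EEF1B2 on the plus strand of chromosome 2 had a start peak of 500 bp in untreated cells (chr2:207024242-207024741) and 750 bp in treated cells, both from 377 bp before the canonical start. Past its end the lists did not overlap: the untreated peak of 750 bp lay 590 to 1339 bp past the canonical end (chr2:207028242-207028991) and the treated peak of 750 bp lay 1840 to 2589 bp past it (chr2:207029492-207030241), with 500 bp between them. Both lists thus marked the stretch after EEF1B2, at places that share no base.

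EEF1G on the minus strand of chromosome 11 had a start peak of 500 bp with identical borders (chr11:62340976-62341475). Its end peak began 1093 bp past the canonical end in both lists. It was 2250 bp wide in untreated cells (chr11:62323726-62325975) and 750 bp in treated cells (chr11:62325226-62325975), the largest difference in width among the overlapping peaks. The untreated peak overlapped a second treated peak farther downstream, outside the 2000 bp flank. Whether the treated peaks are a wide stretch listed as separate peaks was not tested. EEF1G also had the only peak inside a gene in both lists, 750 bp in untreated cells and 500 bp in treated cells, wholly within an intron and 9138 to 9887 bp and 8888 to 9387 bp from the start. The inside and start peaks of EEF1G also overlap another gene record, which has no symbol. Records without a symbol likewise overlap peaks of EEF1D, EIF5A, EIF4A1 and EIF4A2.

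EEF1D on the minus strand of chromosome 8 had no start peak in either list. A peak of 750 bp with identical borders lay 611 to 1360 bp past its canonical end (chr8:144660538-144661287), and the record of NAPRT, a gene of NAD synthesis on the same strand, starts within it. Treated cells had another sense peak of 750 bp inside the gene (chr8:144663288-144664037), with 137 coding bases and 613 intronic bases, and the nearest untreated peak was 2000 bp away.

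EIF5A on the plus strand of chromosome 17 encodes a factor that helps form peptide bonds at stalling sequences, and it was the only member without a sense peak in treated cells. Untreated cells had 1 sense peak of 750 bp, 969 to 1718 bp past the canonical end (chr17:7216751-7217500), inside the record of GPS2, which lies on the opposite strand. Treated cells had 1 antisense peak of 750 bp, from -946 to -197 bp relative to the canonical start (chr17:7210001-7210750). The peaks were 6000 bp apart, so EIF5A was counted with a peak in both lists although the lists agree on neither place nor strand. Antisense peaks around the start were found at 11.2% of coding genes in untreated and 12.1% in treated cells, and at 0 and 1 of the 10 genes here.

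EIF4A1 and EIF4A2 encode the related RNA helicases of the eIF4F complex. EIF4A1 on the plus strand of chromosome 17 had a start peak of 750 bp in untreated cells (chr17:7475751-7476500), from 392 bp before to 357 bp after the canonical start. No treated peak lay there, and the nearest was 5750 bp away. This was the only start peak of the 10 genes found in untreated cells alone, and it also overlaps the record of SENP3-EIF4A1, a readthrough gene. The end peak of EIF4A1 began 73 bp before the canonical end in both lists and was 1250 bp wide in untreated cells (chr17:7482251-7483500) and 1500 bp in treated cells. It also covers the start of CD68, a macrophage gene on the same strand, so that the transcript behind the peak cannot be assigned from position.

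EIF4A2 on the plus strand of chromosome 3 had a start peak with identical borders, 1250 bp from 223 bp before to 1026 bp after the canonical start (chr3:186501143-186502392). Its end peaks overlapped but shared no border. The untreated peak was 500 bp wide and lay 707 to 1206 bp past the canonical end (chr3:186508393-186508892), and the treated peak was 1000 bp wide, from 43 bp before to 956 bp past the end (chr3:186507643-186508642). Treated cells thus had the peak closer to the polyadenylation site. Both overlap the record of RFC4, on the opposite strand.

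EIF4G1 and EIF4G2 encode scaffolds, EIF4G1 of the cap-binding complex eIF4F and EIF4G2 of a form that lacks the site for the cap-binding protein. EIF4G1 on the plus strand of chromosome 3 was the only gene whose sense start peak did not cover the canonical start. It lay 499 to 1248 bp after the start in untreated cells (chr3:184032893-184033642) and 749 to 1248 bp in treated cells. Its end peak began 2 bp past the canonical end and was 1250 bp wide in untreated cells (chr3:184053143-184054392) and 2000 bp in treated cells (chr3:184053143-184055142), the largest gain in width in treated cells. The record of FAM131A, on the same strand, starts within it.

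EIF4G2 on the minus strand of chromosome 11 had a start peak of 1500 bp in untreated cells (chr11:10829220-10830719) and 1250 bp in treated cells, both from 246 bp before the canonical start. Its end peak was 2250 bp wide in untreated cells (chr11:10815970-10818219) and 2000 bp in treated cells, from 382 bp and 632 bp past the canonical end to the same 2631 bp, and overlaps the record of CTR9. The changes of EIF4G2 and EEF1A1 were alike: each of the 4 peaks lost 1 grid step on the side of the gene body, and none moved on the outer side.

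**Figure D2:**
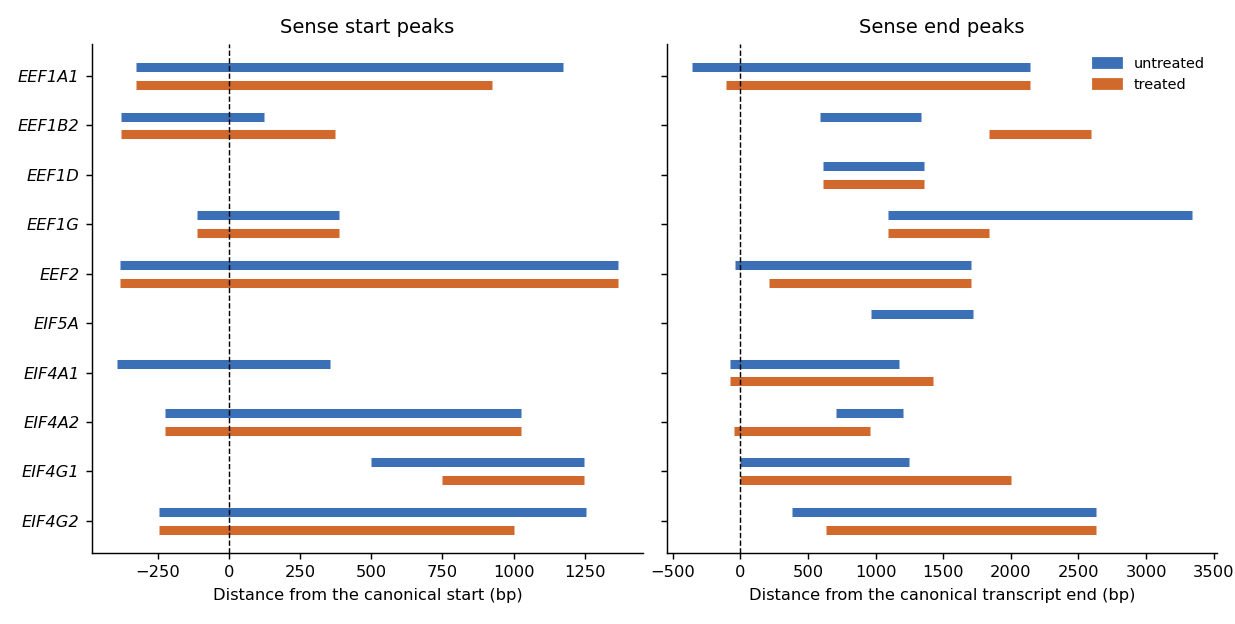
Extent of sense start peaks relative to the canonical start and of sense end peaks relative to the canonical transcript end (horizontal axes, bp; negative values are upstream), 1 bar per peak for untreated (blue) and treated (orange) cells. Sense start peaks cross the dashed line except in EIF4G1, and most end peaks lie to the right of it, with far borders between 956 and 3342 bp.

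Over the 10 genes, 16 untreated and 16 treated peaks overlapped a peak of the other list, which is 16 of 19 in each. In the whole lists 74.8% of untreated and 69.5% of treated peaks did so. Of 16 overlapping pairs, 8 had the narrower peak in treated cells, 4 had the wider one there and 4 were equal. At least 1 border did not move in 14 of the pairs. The same counts were not computed over all overlapping pairs of the lists, so they do not set the 10 genes apart. The equal pairs had the same start and end, namely the start peaks of EEF1G, EEF2 and EIF4A2 and the end peak of EEF1D. Identical borders were found for 32.2% of all untreated and 29.7% of all treated peaks. Peaks in 1 list only were the start peak of EIF4A1 and the end peaks of EIF5A and EEF1B2 in untreated cells, and the inside peak of EEF1D, the antisense peak of EIF5A and the more distal end peak of EEF1B2 in treated cells.

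The summed width per gene was lower in treated cells at 5 genes, higher at 4 and equal at EIF5A. EEF1G had the largest difference, with 3500 bp in untreated cells and 1750 bp in treated cells, where the farther treated peak is not counted, and EEF1D rose from 750 to 1500 bp by its additional peak. EEF1A1 had the largest sum in both lists, 4000 and 3500 bp, followed in untreated cells by EIF4G2 with 3750 bp. No order of effect follows from these sums, since a difference of 250 bp at each border is the resolution of the lists and no replicate error was at hand.

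**Figure D3:**
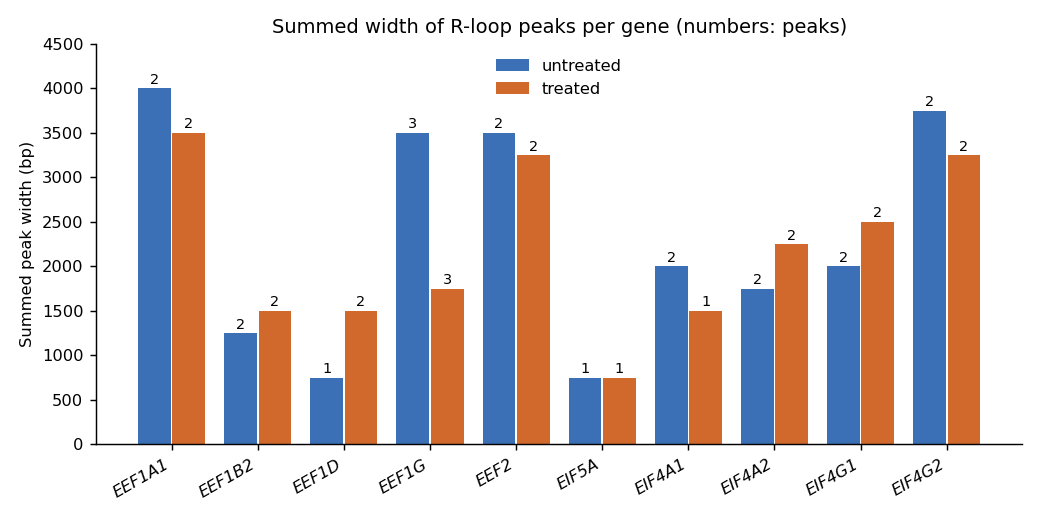
Summed width of the peaks assigned to each gene (vertical axis, bp) in untreated (blue) and treated (orange) cells, with the number of peaks above each bar. EEF1A1 has the largest sum in both lists, and EEF1G shows the largest difference, 3500 against 1750 bp.

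Start and end peaks differed in what they covered. Of the summed width of sense start peaks, 61.0% in untreated and 62.1% in treated cells lay in introns of the canonical transcript, 24.2% and 23.0% upstream of the start, 7.15% and 6.66% in coding sequence and 7.58% and 8.23% in untranslated exons. The same split was not computed for start peaks of all coding genes, so it does not set these genes apart. The first introns are short, from 528 bp in EEF1B2 to 1862 bp in EIF5A among all members but EEF1D, where the first intron has 4687 bp. Sense end peaks held 0 coding bases in both lists, and 96.6% and 98.2% of their width lay outside the transcript. In untreated cells 7 of 10 and in treated cells 6 of 9 end peaks lay wholly past the canonical end. These values were not computed for end peaks of all coding genes. The end window itself reaches 2000 bp past the end, so they do not set these genes apart. Their far borders had a median of 1534.5 bp past the end in untreated cells (1176 to 3342 bp) and 1842 bp in treated cells (956 to 2631 bp). The median width of end and start peaks was 1250 and 1000 bp in untreated and 1500 and 1250 bp in treated cells, although the end peak was the narrower at EIF4A2 in both lists and at EEF2 in treated cells. Across coding genes the medians were 1250 and 500 bp in untreated and 1000 and 500 bp in treated cells.

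Of the 10 genes, 6 host small nucleolar RNAs, RNAs cut from introns that guide modification of ribosomal and spliceosomal RNA, and the peaks left all of them out. Of 12 snoRNA genes within EEF1B2, EEF2, EIF4A1, EIF4A2, EIF4G1 and EIF4G2, 0 were overlapped by a member peak in either list. SNORD2 in EIF4A2 was the nearest, 192 bp from the start peak in both lists. For the other 11 the distance in untreated cells was 1158 bp (SNORA41 in EEF1B2) or more, up to 9583 bp for SNORD66 in EIF4G1. Overlap was also rare elsewhere, with 1.55% of 773 snoRNA genes inside coding genes overlapped in untreated and 1.68% in treated cells, so 0 of 12 does not set these genes apart.

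For the 4 genes with the widest single sense peak that overlapped the other list by at least 1 bp, whatever the length of the overlap, the 100-base window with most G on the strand of the peak, outside exons and within the overlap of the lists, is given for 4 starts and 1 end as an example of the sequence within. Capitals mark runs of 3 or more G. Start windows come first.
EEF1A1 start window, chr6:74230263-74230362, minus strand: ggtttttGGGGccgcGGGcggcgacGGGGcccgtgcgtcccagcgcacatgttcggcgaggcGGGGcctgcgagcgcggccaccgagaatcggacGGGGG
EEF1G start window, chr11:62341062-62341161, minus strand: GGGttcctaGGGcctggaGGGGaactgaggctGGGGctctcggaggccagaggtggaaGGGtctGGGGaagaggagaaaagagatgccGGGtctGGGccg
EIF4G2 start window, chr11:10829648-10829747, minus strand: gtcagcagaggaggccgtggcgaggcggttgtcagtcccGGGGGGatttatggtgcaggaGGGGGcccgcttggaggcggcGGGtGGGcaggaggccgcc
EIF4G1 start window, chr3:184033144-184033243, plus strand: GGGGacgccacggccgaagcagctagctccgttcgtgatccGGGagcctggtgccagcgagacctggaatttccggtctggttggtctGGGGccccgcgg
EIF4G1 end window, chr3:184053918-184054017, plus strand: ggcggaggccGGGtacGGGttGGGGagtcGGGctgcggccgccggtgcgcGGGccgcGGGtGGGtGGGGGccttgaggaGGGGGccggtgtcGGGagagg

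The start windows lie in the first kilobase of their genes and hold 47 G in EEF1A1, 49 in EEF1G, 51 in EIF4G2 and 39 in EIF4G1 per 100 bases. They were picked for the most G, so high counts follow from the choice. The whole untreated start peaks of these genes held 31.3%, 33.6%, 35.2% and 31.1% G. The median over untreated sense start peaks of coding genes was 30.8%. The window past the end of EIF4G1 had 60 G and 10 runs of 3 or more G. It is not typical, since the end peak of EIF4G1 had the highest G content of the untreated member end peaks. That content was 34.2%, against 19.8% in EIF4G2, the lowest of the untreated ones. This window lies 777 to 876 bp past the canonical end, in the stretch shared with the FAM131A record.

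Repeated sequence was counted as the share of 31-base words that occur more than once in GRCh37. It was 0% in the start peaks of EEF2, EIF4G1 and EIF4G2, and the highest share in an untreated start peak was 10.3%, in EEF1A1. Untreated end peaks ranged from 0% in EEF1D and EIF4G1 to 54.4% in EEF2, with 31.4% in EEF1B2, 18.6% in EEF1G, 18.2% in EEF1A1 and 15.5% in EIF4G2. In treated cells the end peaks of EEF2, EEF1G and EEF1B2 had 63.7%, 57.5% and 48.6%, and the intronic peak of EEF1G had 59.2% in untreated and 72.3% in treated cells. Reads from such words can be placed at several sites by an aligner, and the part of this in the borders was not tested. The sense end peaks of EIF4A1, EIF4G1 and EEF1D were nearly free of repeated words and were present in both lists, and they are also those in which the record of another coding gene on the same strand starts. Many members also have processed copies in the genome. Of 94 pseudogene records named after them, 49 of them after EEF1A1, only EEF1A1P5 carried a peak, in untreated cells. The share of all pseudogene records with a peak was not computed, so whether this count is low cannot be judged.

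Sense start peaks of the 10 genes had a median GC content of 59.4% in untreated and 60.6% in treated cells, and their end peaks 51.6% and 50.3%. The values for sense start peaks of all coding genes were 62.0% and 63.0% and those for end peaks 50.8% and 51.7%, so the members followed the difference between gene starts and ends seen in general. GC skew, the excess of G over C on the strand of the peak divided by their sum, had a median of 0.091 in untreated and 0.092 in treated start peaks of the members, with 6 of 8 and 6 of 7 above 0. EIF4A2 was highest at 0.147 in both lists and EIF4G1 lowest, at -0.057 and -0.056. Start peaks of coding genes had medians of 0.00826 and -0.00227, with 1875 of 3589 above 0 in untreated and 1934 of 3991 in treated cells. The end peaks of the members showed no common sign, with 7 of 10 above 0 in untreated cells (median 0.0585) and 3 of 9 in treated cells (median -0.045). The median over end peaks of all coding genes likewise lay above 0 in untreated and below 0 in treated cells, with 1338 of 2568 above 0 in untreated cells (median 0.00576) and 1216 of 2579 in treated cells (median -0.00511). Among the end peaks of the members, EIF4G2 had the lowest values, -0.12 in untreated and -0.128 in treated cells.

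**Figure D4:**
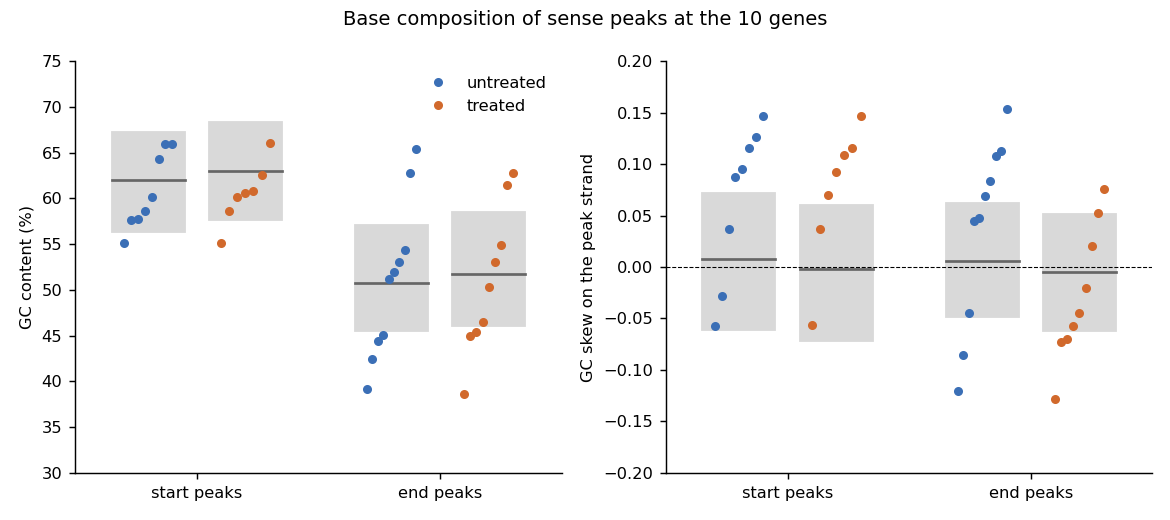
GC content (left, %) and GC skew on the strand of the peak (right) of sense start and end peaks at the 10 genes, 1 point per peak, untreated in blue and treated in orange. Grey boxes span the lower to the upper quartile of sense start or end peaks of all coding genes with the median as a line; start peaks have the higher GC content, and most points for skew at the start lie above 0.

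Among the other genes of translation, the pattern of the 10 was found in the ribosomal protein genes and at a lower share in the remaining factors. Of 77 cytosolic ribosomal protein genes, 77 had a peak in each list, 62 had a sense start peak in each list, 71 had a sense end peak in untreated and 70 in treated cells, and 56 had both in each list, 53 of them in both lists. Of 69 other translation factor genes, 45 had a peak in untreated and 52 in treated cells, 41 in both, and sense peaks at start and end were found at 10 and 11, with 8 in both lists. Coding genes that host a snoRNA, 703 in all, had a peak in 54.6% in untreated and 59.0% in treated cells, and sense peaks at start and end in 11.7% and 11.0%. The groups were compared by these shares only.

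**Figure D5:**
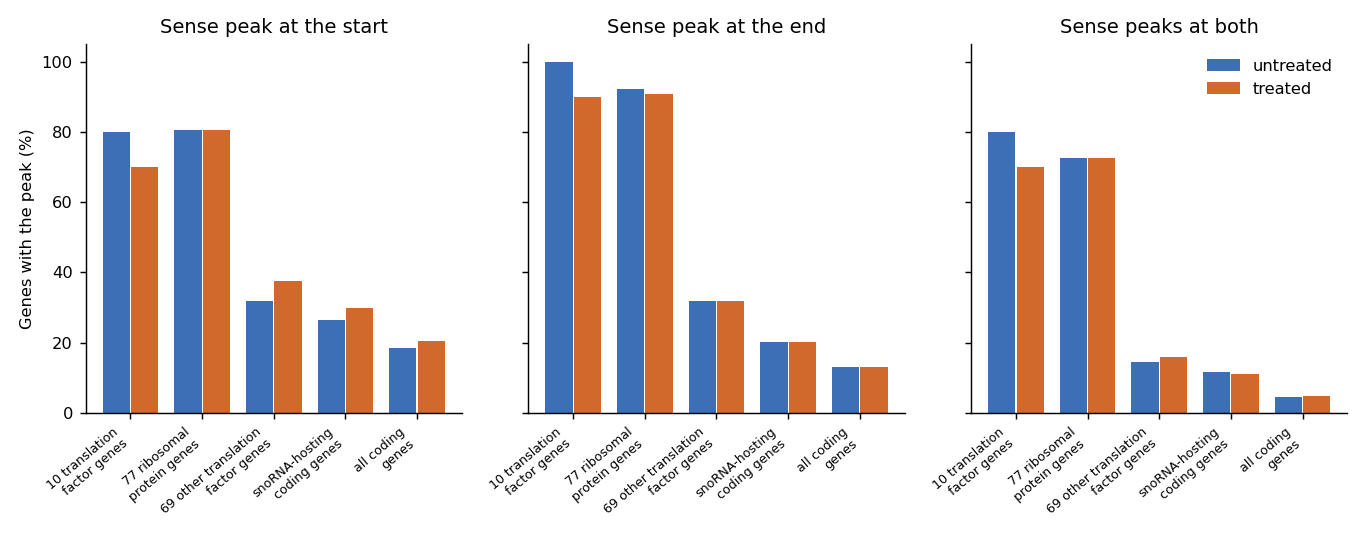
Percentage of genes (vertical axis) with a sense peak at the canonical start, at the canonical end and at both, for the 10 translation factor genes, 77 ribosomal protein genes, 69 other translation factor genes, snoRNA-hosting coding genes and all coding genes, in untreated (blue) and treated (orange) cells. The 10 genes and the ribosomal protein genes stand at 70.0% or more in each panel, and no other group passes 37.7%.

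Of 39 other initiation factors, 28 had a peak in untreated and 32 in treated cells. EIF3D and PABPC4, a subunit of eIF3 and a poly(A)-binding protein, had the widest summed peaks over both lists, each with 3 peaks per list, which came to 3500 bp in each list for EIF3D and 3250 and 3500 bp for PABPC4. Both had sense peaks at start and end in both lists. EIF2D, EIF3F, EIF3H, EIF4E2, EIF4G3 and MCTS1 had a peak in treated cells only, and EIF2S2 and EIF3J in untreated cells only. Of 20098 coding genes, 8406 had a peak in untreated and 8831 in treated cells, with 7314 in both lists. More genes with a peak in treated cells alone is thus the direction of all coding genes. These counts are also the background for the classes below. EIF3F had 3 treated peaks with 2750 bp in all, the widest sum among the factors found in 1 list alone.

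Of 6 other elongation factors, 3 had a peak in untreated and 4 in treated cells, and widths given for these and the following genes are sums over their peaks. VARS1, the valyl-tRNA synthetase bound to eEF1, had 2750 bp in untreated cells and 3250 bp in treated cells with peaks at both ends, EEF1A2, the form of eEF1A in nerve and muscle, had 2000 and 1500 bp with an end peak and no start peak, and EIF5A2 had 500 bp in treated cells only. Of 4 release and recycling factors, 2 had a peak in untreated and 3 in treated cells: ETF1 had 1250 and 1000 bp, GSPT1 had 500 and 1000 bp, and GSPT2 had 750 bp in treated cells only.

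Of 11 regulators, 7 had a peak in untreated and 6 in treated cells. EEF2K, the kinase of eEF2, had 1250 bp in each list, EIF2AK4, a kinase of eIF2α, had 1250 and 750 bp, and PAIP1 had 750 and 1250 bp. EIF4EBP2 and EIF2AK1 had a peak in untreated cells only and EIF2AK2 in treated cells only. Of 9 mitochondrial factors, 5 had a peak in untreated and 7 in treated cells, and 0 had a sense end peak in either list, beside 13.0% of all coding genes, which 9 genes are too few to tell from 0. MTIF2 had the widest sum, 2750 and 3000 bp, with 1 of its 2 peaks sense in each list, TSFM had 1000 and 750 bp and MTIF3 had 750 and 1000 bp. MTRF1L and MRRF had a peak of 500 bp in treated cells only.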

How the data were processed

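Before deposit, the authors used Trim Galore for trimming, Bowtie2 for alignment to hg19 and Picard for duplicate removal, and took R-loops from 2 replicates by a published procedure. The deposited lists, 1 per condition and attached to replicate 1, give peak positions in bp and the strand only, with no other value, and the lists themselves do not say whether they stand for 1 replicate or both. The inputs were not analysed here, and depth is unknown.

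The members, gene lists and windows were chosen with earlier results of these data known. All 10 members are named, and of each class of other factors the genes with a peak in 1 list only and the 2 with the widest summed peaks. Positions were taken from GENCODE release 44 mapped to GRCh37, with the Ensembl canonical transcript of each gene, which 279 coding genes lack. Ribosomal protein genes were taken by symbol. Lists were compared by an overlap of at least 1 bp on any strand. Sequences came from GRCh37. The sequence windows past the ends of the other genes are not reported here. Assignment and overlap were tested on simulated data and by comparison with bedtools 2.31.1. Software was Python 3.11.15, numpy 2.4.6, pandas 2.3.3, scipy 1.17.1 and matplotlib 3.10.9. Alternatives covered flank, strand, midpoint, overlap and window size.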

Additional observations from a re-analysis of the deposited data

How the results depend on the processing

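No paired analysis was possible because only 1 list of peaks per condition was at hand. Counts of the 10 genes with a peak and of their peaks stayed within 1.5 times the value given under each flank, strand, midpoint and transcript setting, from 8 genes and 13 peaks in untreated cells with no flank to 22 treated peaks with 5 kb. Peaks shared between the lists depended on the rule: 16 of 19 in each list at 1 bp, 13 at 50% reciprocal overlap, 5 and 5 at 90%, and 4 and 4 with the same start, end and strand. The counts at 50% and 90% were not computed over the whole lists, so they do not set the members apart. The share of coding genes with a peak in untreated cells, in treated cells and in both moved to 31.8%, 34.2% and 26.3% without a flank, 45.5%, 47.8% and 40.2% with 5 kb, 31.7%, 33.3% and 26.7% on the strand of the gene, 40.5%, 42.7% and 35.0% by midpoint, 39.8%, 40.9% and 34.9% among genes no longer than the longest member, and 54.6%, 59.0% and 49.1% among genes hosting a snoRNA. Alternatives chosen after seeing the data were tried for sense peaks at start and end. With the end window at 1 kb and 5 kb, coding genes moved to 3.11% and 5.46% in untreated and 3.34% and 6.08% in treated cells, while the members ranged from 5 to 8. Without end peaks that hold the start of another coding gene of the same strand, 6 members remained in each condition. This setting was not computed over all coding genes, so that count has no background share. Depth and replicate error could not be assessed from the lists.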
